A study of Mus musculus with 8 samples.

Results

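Mitochondrial ribosomal protein genes were taken as every row of the deposited expression table whose symbol begins with Mrpl or Mrps followed by a number. The rule found 78 genes among the 16888 of the table. Of these, 51 encode proteins of the large subunit of the mitochondrial ribosome and 26 encode proteins of the small subunit. The last, Mrps36, was first listed as a small subunit protein and is now known as a part of the 2-oxoglutarate dehydrogenase complex. RNA was sequenced from 8 mouse pancreas samples, and every mouse had received repeated cerulein injections, which overstimulate the exocrine pancreas and cause acute pancreatitis (AP). The 4 samples called CKO carried a myeloid-specific knockout of Anxa1, the gene of the phospholipid-binding protein annexin A1, and the 4 called WT were Anxa1 flox/flox controls. The promoter that drove the deletion, the age of the mice and whether each sample was 1 animal are not given in the labels, so p-values measure the spread between samples. There was no group without cerulein.

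The mitochondrial ribosome makes the few respiratory chain subunits that mitochondrial DNA encodes. Its RNA is transcribed inside the organelle, while all of its proteins are encoded in the nucleus, made in the cytosol and imported. The small subunit reads the messenger RNA and the large subunit joins the amino acids. Some of its proteins descend from the bacterial ribosome, and others have no bacterial counterpart. Acinar cells, which make and secrete the digestive enzymes, draw on mitochondrial ATP for secretion. The table held 0 mitochondrially encoded genes, so neither the RNA of the mitochondrial ribosome nor the messages it translates were analysed here.

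Nuclear respiratory factor 1 (NRF1), the ETS-family factor GABP and YY1 are known regulators of nuclear genes for mitochondrial proteins, and their motifs were looked up in the promoters. RefSeq windows on GRCm38.p6, from 250 bases before to 50 bases after the annotated start, were matched by symbol for 69 of the 78 genes. The NRF1 motif, searched on both strands as GCGCCTGCGC with any base allowed in place of the fifth letter, was in 18.8% of these windows, against 11.6% of the windows of all genes tested below. The ETS motif, searched as CCGGAAG on both strands, was in 36.2% against 20.4%. The YY1 motif, searched as AAGATGGCG on both strands, was in 11.6% against 3.9%. At least 1 of the 3 was in 58.0% of the members' windows and in 32.2% of those of the tested genes. The E-box CACGTG, which Myc binds, was in 7.25% against 11.05%, and the cyclic AMP element TGACGTCA was in 2.9% against 3.39%. A match is a run of letters, not a site shown to be bound.

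Promoters of 3 members that passed the test below are printed because they hold a match in a stretch free of annotated exons. Capitals mark the matches, and each sequence is written 5′ to 3′ on the strand of its gene. The Mrps22 stretch is chr9:98601680-98601879 on the minus strand and ends at the base before the start, with an ETS match whose first base lies 11 bases before the start.
Mrps22: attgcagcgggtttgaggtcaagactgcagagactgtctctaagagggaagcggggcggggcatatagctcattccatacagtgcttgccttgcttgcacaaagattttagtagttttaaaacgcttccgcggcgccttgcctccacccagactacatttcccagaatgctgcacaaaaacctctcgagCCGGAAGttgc
The Mrpl43 stretch is chr19:45006443-45006557 on the minus strand, with a pair of ETS matches that begin 56 and 12 bases before the start.
Mrpl43: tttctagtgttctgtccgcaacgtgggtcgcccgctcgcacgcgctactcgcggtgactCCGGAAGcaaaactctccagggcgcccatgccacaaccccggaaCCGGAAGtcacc
The Mrpl12 stretch is chr11:120484437-120484612 on the plus strand and runs from -200 to -25, counted from the RefSeq start. Its NRF1 match begins 81 bases before that start. Starts in these promoters are those of RefSeq, while the gene positions given below are those of GENCODE M21 and can differ.
Mrpl12: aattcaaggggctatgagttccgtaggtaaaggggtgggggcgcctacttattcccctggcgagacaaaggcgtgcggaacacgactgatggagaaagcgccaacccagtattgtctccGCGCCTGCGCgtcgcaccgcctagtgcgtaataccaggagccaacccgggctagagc
The median log2 change between the groups, defined below, was -0.29 for tested members with any of the 3 motifs and -0.23 for those with none. Motif by motif it was -0.22 with and -0.28 without the NRF1 motif, -0.29 and -0.23 for ETS, and -0.24 and -0.25 for YY1.

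Expression values were RPKM, read numbers scaled for gene length and for library total. Library totals recovered from them ran from 30469002 reads (WT4) to 34359802 (CKO2), and each member had between 45 and 1610 reads in a library. For a gene of 1000 bases, 3 reads were worth 0.0873 to 0.0985 RPKM, depending on the library. The tissue label was checked with acinar markers: all 12 were detected, with summed levels of 340000 to 392000 RPKM in CKO and 342000 to 374000 in WT, and 0 of the 12 passed the test. Digestive enzymes took 50.8% to 58.9% of the reads in CKO and 52.3% to 55.2% in WT. The targeted gene, Anxa1, averaged 5.48 ± 1.11 RPKM (SD, n = 4) in CKO and 9.98 ± 3.33 RPKM in WT, with overlapping groups (log2 change -0.73, adjusted p = 0.0417, limma). Only the omission of CKO4 or of WT3 left that call in place. The deletion was aimed at myeloid cells and the samples are whole tissue.

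The question for the mitochondrial ribosomal protein genes was how their RNA in the inflamed pancreas compares between the genotypes. Transcripts of most members were lower in CKO than in WT, by a modest amount, and 8 genes fell past the threshold: Mrps24, Mrps6, Mrps22 and Mrps23 of the small subunit and Mrpl43, Mrpl12, Mrpl40 and Mrpl28 of the large subunit. No member rose. In whole tissue, fewer cells of a type and less RNA per cell cannot be told apart. Changes were tested with limma on log2(RPKM + 1) over the 8513 genes that reached 1 RPKM in 4 or more libraries, with Benjamini-Hochberg adjustment over all of them and a threshold of 0.05. The filter left 76 of the 78 members, all but Mrpl14 and Mrps25. The 8 genes are 10.5% of the tested members, while 5.74% of all tested genes fell. Of all tested genes, 1.42% rose, and 0 members rose, with 0 higher at an unadjusted p under 0.05, where 4.6% of all tested genes were higher, and 0 in limma-voom on recovered reads.

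The median log2 change of the tested members was -0.23 (quartiles -0.34 and -0.14), and 71 of the 76 (93.4%) were below 0. Over all tested genes the median was -0.12 (quartiles -0.28 and 0.03), and 70.4% were below 0, so the members lay 0.11 below a table that was itself shifted downward. At an unadjusted p under 0.05, 34 members were lower (44.7%), against 22.7% of all tested genes. In 30 members (39.5%) all 4 CKO libraries were below all 4 WT libraries, against 16.2% of all tested genes. The reverse order was seen in 0 members and in 2.46% of all tested genes. The standard error of a member's change was between 0.10 and 0.16, beside this median of -0.23.

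**Figure D1:**
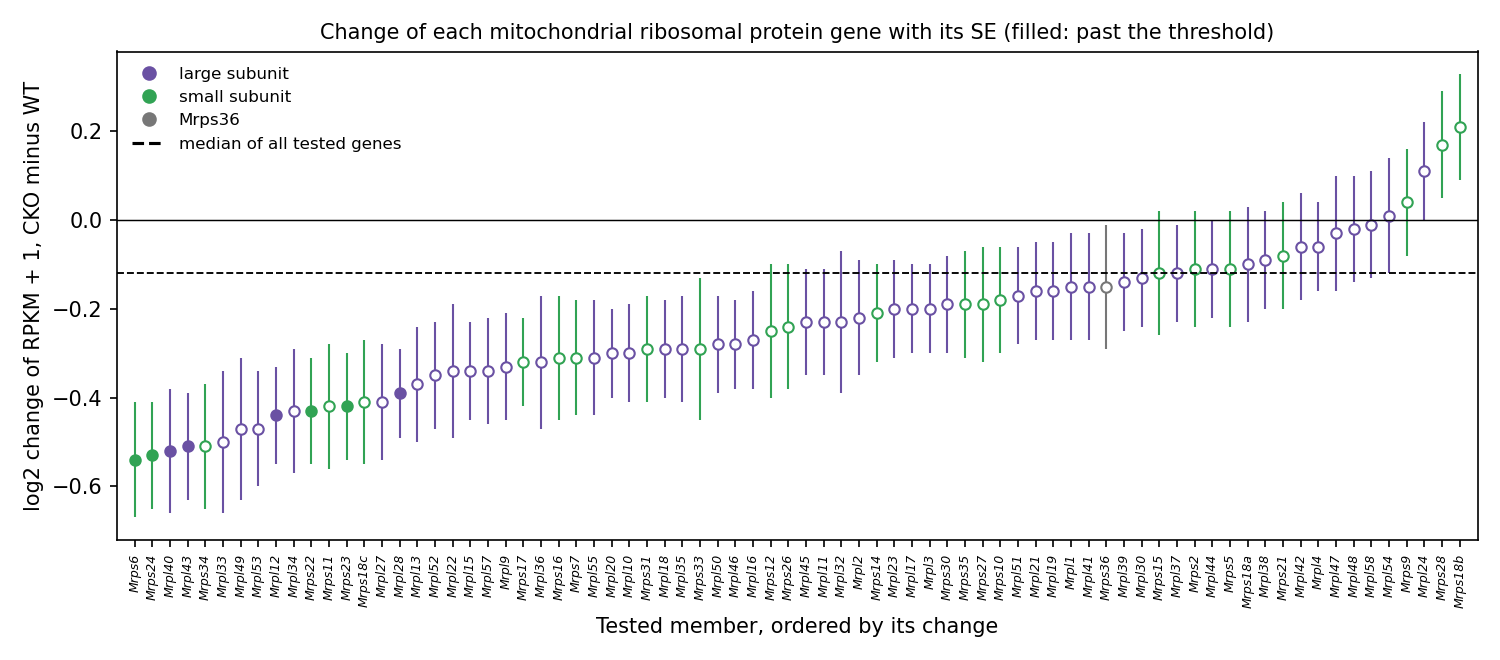
Log2 change of RPKM + 1, CKO minus WT, for each of the 76 tested members in order of its change, with its standard error as a bar; colours give the subunit, filled points passed the threshold, and the dashed line is the median of all tested genes. The points run from -0.54 for Mrps6 to 0.21 for Mrps18b, with 71 of 76 below 0.

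The call counts depended on scaling and on gene length, and both are given here because they touch every count above. Centring each library on its median moved the median of all tested genes by more than 0.1, to -0.01. After it 1 member, Mrpl43, stayed lower (adjusted p = 0.0491), the members' median was -0.12, and 60 of 76 were below 0. All genes then split into 345 higher and 260 lower calls, in place of 121 higher and 489 lower. With library totals computed without the digestive enzymes, 6 members were lower at a median of -0.18, and the split was 220 higher and 450 lower. With a trend on gene length removed within each library, 0 members were lower, 2 (Mrps18b and Mrps28) were higher, the members' median was -0.07 against -0.01 for all genes, and the split was 350 higher and 240 lower. The members' median stayed below that of all tested genes in each of these settings.

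Members are short genes. The gene length behind the RPKM values had a median of 1412.5 bases for the members and 3168.5 for the tested genes, and 67 of the 78 were shorter than the latter. Short genes as a whole were lower in CKO: among other genes of up to 1000 bases the median change was -0.26 and 14.8% fell, and among those of more than 5000 bases it was -0.03 and 1.94% fell. The 23 tested members of up to 1000 bases had a median change of -0.31, with 2 past the threshold, where 14.8% of other genes fell. The 20 members of 1000 to 1500 bases also had a median of -0.31, with 6 past the threshold, where other genes of that length had a median of -0.24 and 12.2% fell. In the 21 members of 1500 to 2500 bases the median was -0.19, with 0 past the threshold (limma; 7 lower at an unadjusted p under 0.05), against -0.17 and 7.07% for other genes of that length. The longer members, 7 of 2500 to 5000 bases and 5 above that, had medians of -0.23 and -0.20, against -0.12 and -0.03. Neither class held a call, and 4.35% and 1.94% of other genes of these lengths fell. The calls thus exceeded the share among other genes in the class of 1000 to 1500 bases and lay below it in the other classes. In each length class the members' median was thus below that of the other genes, and no test of this difference was made. Across the 76 members, Spearman's rho between change and length was 0.27, and across 8506 tested genes it was 0.30. These genes were measured in the same libraries and are not independent replicates.

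**Figure D2:**
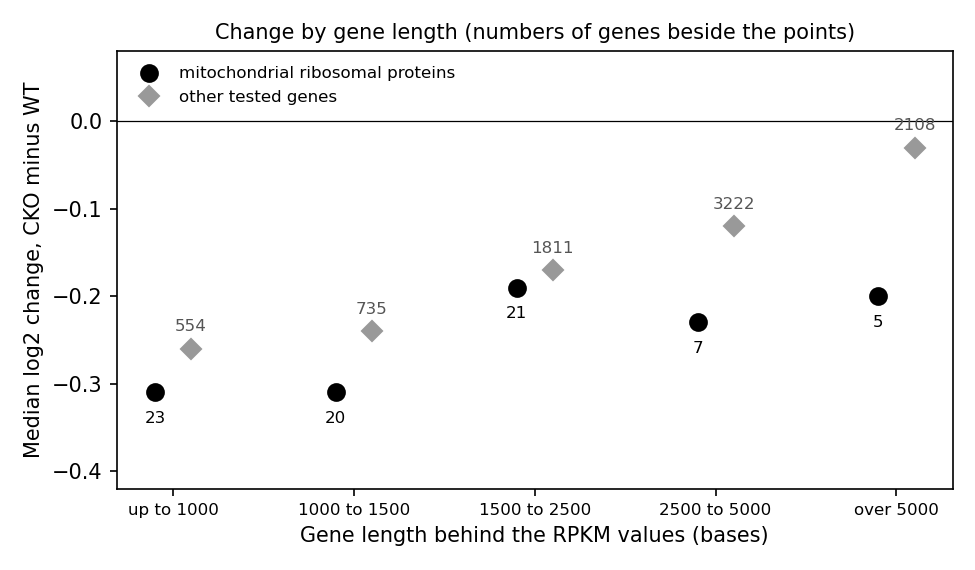
Median log2 change, CKO minus WT, in 5 classes of gene length in bases, for tested members (black circles) and other tested genes (grey diamonds), with the number of genes beside each point. Both medians are lowest in the shortest classes, -0.31 for the members and -0.26 for other genes up to 1000 bases.

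Small subunit proteins held 4 of the calls. Mrps24, the mitochondrial form of bacterial ribosomal protein S3, which lines the channel where messenger RNA enters, lies at 5703983 to 5715680 on the minus strand of chromosome 11 (mm10, GENCODE M21). It measured 8.22, 11.3, 10.04 and 11.6 RPKM across CKO1 to CKO4, against 15.9, 15.2, 14.05 and 15.6 RPKM across WT1 to WT4. Every CKO library was below every WT library, and CKO1 was the lowest. The mean was 32.2% lower in CKO (10.3 ± 1.54 against 15.2 ± 0.799 RPKM; log2 change -0.53, SE 0.12, adjusted p = 0.0263, limma). Its exons share bases with Urgcp on the same strand, so reads there could be assigned to either gene. Of the 8 omissions of 1 library, 5 kept the call, which was lost without WT1, WT2 or WT4.

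Mrps6, the counterpart of bacterial S6 on the platform of the small subunit, lies at 92058270 to 92112227 on the plus strand of chromosome 16. It measured 2.51, 2.57, 2.82 and 2.56 RPKM across CKO1 to CKO4, against 3.22, 4.15, 4.80 and 5.05 RPKM across WT1 to WT4. The CKO libraries were close together and all below the WT libraries, which were spread more widely. The mean was 39.3% lower (2.62 ± 0.138 against 4.31 ± 0.817 RPKM; log2 change -0.54, SE 0.13, adjusted p = 0.0301, limma). The gene had 63 to 120 reads per library and shares exon bases with Slc5a3, which lies within it on the same strand. The call held in 3 of the 8 omissions, those of CKO1, CKO3 and WT1.

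Mrps22 and Mrps23 have no bacterial counterpart, and mutations of MRPS22 in humans cause mitochondrial disease. Mrps22 (chromosome 9, 98588730 to 98601660, minus strand), whose promoter is printed above, measured 2.81, 3.35, 3.13 and 3.23 RPKM across CKO1 to CKO4, against 5.11, 4.58, 4.85 and 3.83 RPKM across WT1 to WT4. The groups did not overlap, and WT4 lay nearest to the CKO libraries. Its mean was 31.8% lower (log2 change -0.43, SE 0.12, adjusted p = 0.0435, limma). Mrps23 (chromosome 11, 88204388 to 88211507, plus strand) measured 7.55, 8.99, 9.22 and 8.13 RPKM across CKO1 to CKO4, against 11.9, 10.7, 10.8 and 13.4 RPKM across WT1 to WT4. These groups did not overlap either. The mean was 27.5% lower (log2 change -0.42, SE 0.12, adjusted p = 0.0484, limma). Each call held in 1 of the 8 omissions, that of WT4 for Mrps22 and that of CKO3 for Mrps23.

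Among large subunit proteins, Mrpl12 had the highest level of all 78 members. It forms the flexible stalk that recruits translation factors, and in humans it has also been found to bind the mitochondrial RNA polymerase. Mrpl12 (chromosome 11, 120484613 to 120489065, plus strand), whose promoter is printed above, measured 32.5, 37.0, 37.3 and 30.1 RPKM across CKO1 to CKO4, against 51.5, 45.4, 43.0 and 46.3 RPKM across WT1 to WT4. The groups did not overlap. The mean was 26.5% lower (34.2 ± 3.52 against 46.6 ± 3.61 RPKM; log2 change -0.44, SE 0.11, adjusted p = 0.0364, limma), from 932 to 1610 reads per library. Without CKO3 the call held, and it was lost in the other 7 omissions. The stalk's other parts followed without passing: Mrpl10, which anchors Mrpl12, averaged 8.23 ± 0.435 against 10.4 ± 0.96 RPKM with no overlap (log2 change -0.30, adjusted p = 0.0975), and Mrpl11, at the stalk base, averaged 2.36 ± 0.226 against 2.96 ± 0.415 RPKM with overlap (log2 change -0.23, adjusted p = 0.214).

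Mrpl43, a large subunit protein with no bacterial counterpart, lies at 45004829 to 45006442 on the minus strand of chromosome 19. It measured 15.6, 14.6, 15.9 and 11.98 RPKM across CKO1 to CKO4, against 19.2, 23.6, 19.96 and 21.1 RPKM across WT1 to WT4. The groups did not overlap, and CKO4 was the lowest. The mean was 30.8% lower (14.5 ± 1.77 against 20.95 ± 1.91 RPKM; log2 change -0.51, SE 0.12, adjusted p = 0.0281, limma). Its exons overlap those of Twnk, the mitochondrial DNA helicase gene, on the other strand, and the sources used here do not say whether the counting used strand. Without CKO1 or CKO3 the call held, and each of the other 6 omissions ended it.

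Mrpl40 is also specific to mitochondria, and Mrpl28 is related to a bacterial protein. Mrpl40 (chromosome 16, 18872018 to 18876862, minus strand) starts 175 bases from Hira, which is transcribed away from it. It measured 9.03, 8.19, 9.85 and 6.36 RPKM across CKO1 to CKO4, against 11.6, 11.6, 11.7 and 14.3 RPKM across WT1 to WT4. CKO4 was low and WT4 high within their groups, which did not overlap. The mean was 32.0% lower (log2 change -0.52, SE 0.14, adjusted p = 0.0429, limma), and the call held without CKO1 or CKO3 and in no other omission. Mrpl28 (chromosome 17, 26123500 to 26126613, plus strand) measured 8.68, 9.24, 9.80 and 9.66 RPKM across CKO1 to CKO4, against 12.5, 12.7, 11.5 and 13.3 RPKM across WT1 to WT4. Both groups were tight and did not overlap. The mean was 25.4% lower (log2 change -0.39, SE 0.10, adjusted p = 0.0443, limma), and the call held without CKO3 only.

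**Figure D3:**
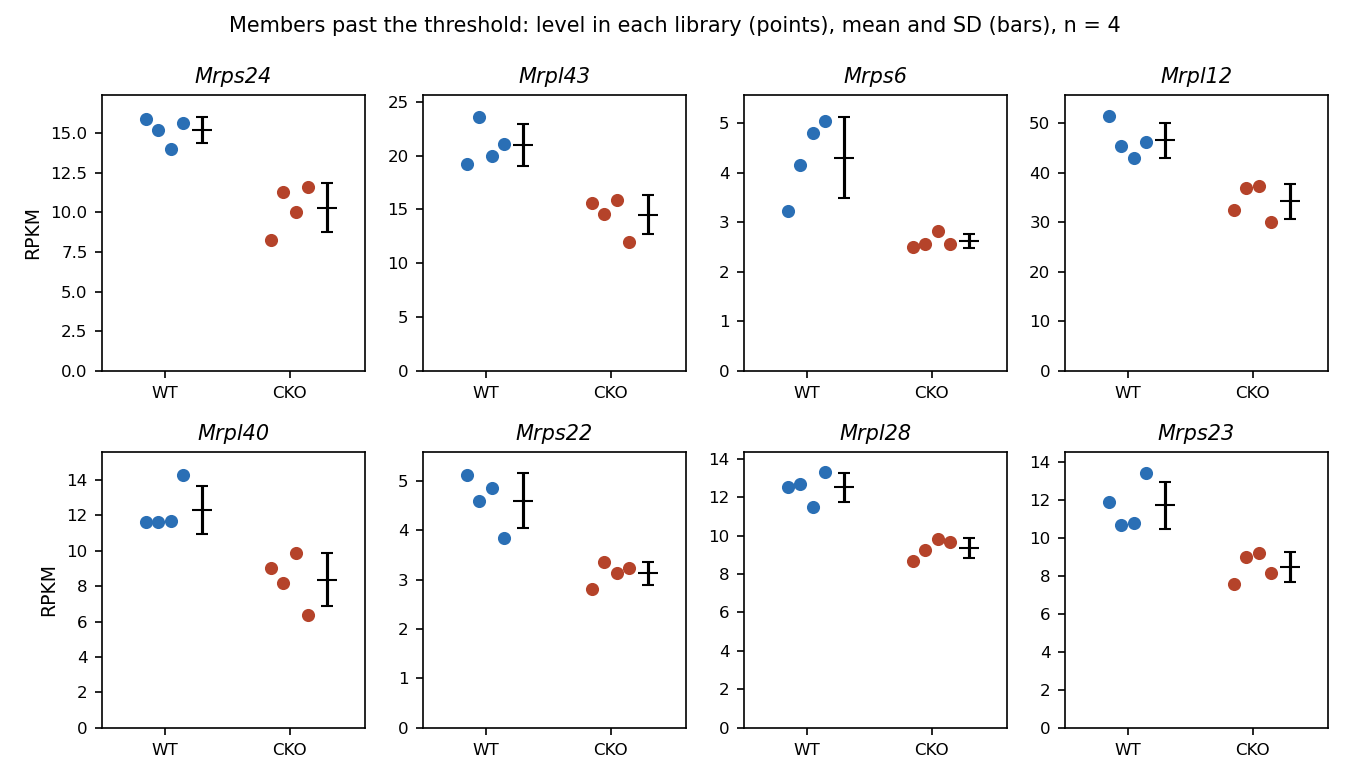
RPKM of the 8 members past the threshold in each WT (blue) and CKO (red) library, with the group mean and SD as bars (n = 4). Every CKO point lies below every WT point of the same gene, and the means differ by 25.4% (Mrpl28) to 39.3% (Mrps6).

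Leaving out 1 library at a time changed how many members passed more than it changed their size. The count of lower members was 4 without CKO1, 8 without CKO3, 0 without WT2, and 1 without each of CKO2, CKO4, WT1, WT3 and WT4. Without WT2, 24 members were still lower at an unadjusted p under 0.05. The members' median stayed between -0.27 and -0.22 over the 8 omissions. The share of all tested genes that fell ran from 1.93% to 6.91% over the same omissions.

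Of the 68 tested members that did not pass, 22 also had all CKO libraries below all WT libraries, an order seen in 16.2% of all tested genes. Among the 68, the largest changes were those of Mrps34 of the small subunit (7.23 ± 1.38 against 10.7 ± 1.39 RPKM, log2 change -0.51, adjusted p = 0.0515), and Mrpl33, Mrpl49, Mrpl53 and Mrpl34 of the large subunit. Mrpl53 came closest to the threshold (8.14 ± 0.616 against 11.8 ± 2.29 RPKM, log2 change -0.47, adjusted p = 0.0509). Mrpl33, a counterpart of a bacterial protein, measured 15.8, 16.2, 23.3 and 12.8 RPKM across CKO1 to CKO4, against 22.8, 22.3, 22.7 and 28.9 RPKM across WT1 to WT4, so CKO3 lay among the WT libraries (log2 change -0.50, adjusted p = 0.0755). Mrpl49 averaged 1.503 ± 0.455 against 2.48 ± 0.667 RPKM with overlap (log2 change -0.47, adjusted p = 0.0874), and Mrpl34 averaged 4.91 ± 0.956 against 6.91 ± 0.583 RPKM without overlap (log2 change -0.43, adjusted p = 0.074). Mrpl46 and Mrps11, chosen after their values were seen, overlap each other head to head on opposite strands of chromosome 7. Neither of this pair passed or had groups that overlapped: Mrpl46 averaged 9.16 ± 0.364 against 11.3 ± 0.307 RPKM (adjusted p = 0.0972), and Mrps11 averaged 2.42 ± 0.503 against 3.56 ± 0.482 RPKM (adjusted p = 0.0766).

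The 3 proteins related to bacterial S18 gave different values. Mrps18c, in the small subunit, averaged 10.9 ± 1.401 RPKM in CKO and 14.9 ± 2.91 in WT, with no overlap (log2 change -0.41, SE 0.14, adjusted p = 0.0902). Mrps18a, which sits in the large subunit, averaged 17.4 ± 2.73 against 18.7 ± 2.204 RPKM (log2 change -0.10, SE 0.13, adjusted p = 0.643). Mrps18b, in the small subunit, measured 18.3, 21.2, 21.9 and 16.4 RPKM across CKO1 to CKO4, against 18.2, 14.4, 16.1 and 17.8 RPKM across WT1 to WT4. Most CKO libraries were above the WT libraries, but CKO4 was not (log2 change 0.21, SE 0.12, adjusted p = 0.291). It passed as higher once the length trend was removed (log2 change 0.40, adjusted p = 0.0335), as did Mrps28 (log2 change 0.41, adjusted p = 0.0317). As deposited, Mrps28 measured 9.48, 10.8, 11.8 and 10.8 RPKM across CKO1 to CKO4, against 11.005, 9.06, 8.56 and 9.18 RPKM across WT1 to WT4, so WT1 lay among the CKO libraries (log2 change 0.17, adjusted p = 0.374). The other members above 0 were Mrpl24 at a log2 change of 0.11, Mrps9 at 0.04 and Mrpl54 at 0.01. The difference in change between the S18 relatives was not tested.

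Among members with other defined tasks, Mrps12 forms part of the decoding centre and Mrpl58 is a hydrolase that releases peptides from stalled ribosomes. Mrps12 averaged 3.77 ± 0.601 RPKM in CKO and 4.71 ± 1.021 in WT with overlap (log2 change -0.25, SE 0.15, adjusted p = 0.291). Mrpl58 averaged 18.2 ± 1.57 and 18.4 ± 2.11 RPKM (log2 change -0.01, SE 0.12, adjusted p = 0.952). Mrps36 averaged 2.43 ± 0.416 and 2.80 ± 0.508 RPKM (log2 change -0.15, SE 0.14, adjusted p = 0.509).

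Levels of the members ranged from 0.596 to 40.4 RPKM as means over the 8 libraries, with a median of 6.38. By this mean, 2 members were below 1 RPKM, 30 between 1 and 5, 21 between 5 and 10, 19 between 10 and 20, and 6 at 20 or above. After Mrpl12 the highest levels were those of Mrpl52 (33.7 ± 4.18 RPKM in CKO, 43.3 ± 4.80 in WT, adjusted p = 0.0878), Mrpl54 (31.4 ± 3.97 and 31.1 ± 3.78, adjusted p = 0.957), Mrpl38 (23.7 ± 3.04 and 25.1 ± 1.31, adjusted p = 0.634) and Mrps21 (23.0 ± 3.36 and 24.2 ± 0.966, adjusted p = 0.696). The group ranges of these 4 genes overlapped or met. The lowest levels were those of Mrpl14, Mrps25, Mrpl1, Mrpl4 and Mrpl41. Mrps25, which was not tested for its low level, measured 0.544, 0.584, 0.622 and 0.422 RPKM across CKO1 to CKO4, against 0.848, 0.907, 0.817 and 0.859 RPKM across WT1 to WT4. Its CKO libraries were all below its WT libraries, and with no filter its adjusted p was 0.0726 (limma). Mrpl14 overlapped between groups (0.532 ± 0.141 and 0.660 ± 0.162 RPKM). RPKM levels divide by the gene length the authors used, which ran from 251 bases for Mrps18c to 8707 for Mrpl3 and equalled the GENCODE M21 exon length of 0 of the 78 members, so the order of levels between members depends on those lengths. The ratio of 1 gene's mean RPKM between groups does not. The filter at 1 RPKM and the log2 change with its pseudocount of 1 do depend on them. Mrpl14, with 100 to 185 reads over 7525 bases, was not tested, and Mrps36, with 45 to 76 reads over 716 bases, was.

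The subunits were also counted apart. The large subunit's 50 tested members had a median change of -0.23, with 48 (96.0%) below 0 and 4 past the threshold. The small subunit's 25 had a median of -0.25, with 22 (88.0%) below 0 and 4 past the threshold. Of all tested genes, 70.4% were below 0 and 5.74% fell. Within the large subunit the median was -0.29 for 29 counterparts of bacterial proteins and -0.17 for 21 proteins specific to mitochondria, and each class held 2 of the calls. Within the small subunit it was -0.23 for 16 bacterial counterparts and -0.29 for 9 specific proteins, again with 2 calls each. The class with the lower median was thus the bacterial counterparts in the large subunit and the specific proteins in the small one, and neither difference was tested. The specific classes include Mrps18a in the large subunit and Mrps18b in the small one, although both are related to bacterial S18. Summed RPKM of the large subunit divided by that of the small was 2.36, 2.25, 2.37 and 2.31 in CKO1 to CKO4 and 2.36, 2.42, 2.36 and 2.38 in WT1 to WT4, ranges that overlap.

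Summed over all 78 members, the level was 608, 667, 672 and 584 RPKM across CKO1 to CKO4, against 757, 751, 726 and 810 RPKM across WT1 to WT4. The highest CKO library was below the lowest WT library. The mean was 632.6 ± 43.9 RPKM in CKO and 760.9 ± 35.01 in WT (SD, n = 4), a ratio of 0.831, and 0.870 with library totals computed without the digestive enzymes. Per 1000000 reads, 773, 840, 848 and 744 came from members in CKO1 to CKO4 and 956, 954, 919 and 998 in WT1 to WT4. CKO4 was the lowest library of 31 of the 76 tested members and CKO1 of 27. Of all 8513 tested genes, CKO4 was the lowest library of 2979 and CKO1 of 2517. Both were thus often the lowest across the whole table, not only for the members. They are the libraries with the highest share of digestive enzyme reads, 58.9% and 58.8%, and a link with that share was not tested. CKO2 was the lowest of 9 members (11.8%), CKO3 of 4 (5.26%), WT2 of 3 (3.95%) and WT3 of 2 (2.63%). Of all tested genes these shares were 4.62%, 2.89%, 6.58% and 2.21%. Together the CKO libraries held the lowest value of 93.4% of members and of 72.1% of all tested genes.

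Library by library, the members' median deviation from each gene's own mean was -0.15, -0.08, -0.06 and -0.20 in CKO1 to CKO4 and 0.10, 0.15, 0.08 and 0.17 in WT1 to WT4, in log2 units. The same median over all tested genes was -0.17, 0.00, 0.09 and -0.15 in CKO and 0.06, 0.10, 0.11 and -0.03 in WT. By this measure every CKO library lay below every WT library for the members and also for the respiratory chain genes described below (-0.16, -0.10, -0.04 and -0.06, against 0.10, 0.13, -0.01 and 0.21). It did not for all tested genes, where CKO3 stood above WT1 and WT4 was below 0. In CKO3 and WT4 the members and the table as a whole lay on opposite sides of 0.

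**Figure D4:**
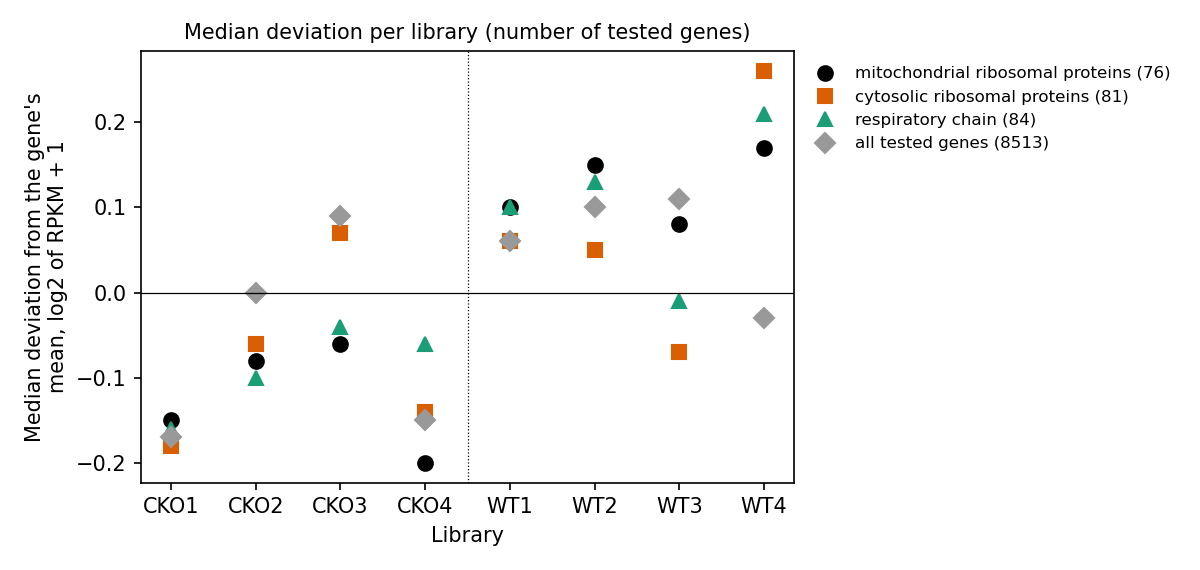
Median deviation of log2(RPKM + 1) from each gene's mean over the 8 libraries, for mitochondrial ribosomal protein genes, cytosolic ribosomal protein genes, respiratory chain genes and all tested genes. The mitochondrial ribosomal medians lie between -0.20 and -0.06 in the CKO libraries and between 0.08 and 0.17 in the WT libraries.

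The gene sets most like the members are the cytosolic ribosomal proteins and the nuclear-encoded respiratory chain genes. The median change was -0.17 over 81 tested cytosolic ribosomal protein genes, 5 of which fell, and -0.18 over 84 tested respiratory chain genes, 12 of which fell. Neither set had a gene that rose. Beside these calls, 8 of 76 members and 5.74% of all tested genes fell. Changes were below 0 in 72 and 76 of the cytosolic and respiratory genes (88.9% and 90.5%), against 93.4% of members and 70.4% of all tested genes. At an unadjusted p under 0.05, 19 and 34 of them were lower, against 34 members and 22.7% of all tested genes. All CKO libraries were below all WT libraries in 10 and 30 of them, against 30 members and 16.2% of all tested genes. Summed levels had ratios of 0.912 and 0.881. The members' sum was 2.16, 2.22, 2.04 and 2.05% of the cytosolic ribosomal sum in CKO1 to CKO4 and 2.33, 2.35, 2.45 and 2.18% in WT1 to WT4, and CKO2 lay above WT4. Relative to the respiratory chain sum it was 26.2, 26.6, 25.7 and 22.8% in CKO and 26.8, 26.4, 27.6 and 26.5% in WT, which overlap. With the length trend removed the medians of these sets were 0.07 and 0.03, against -0.07 for the members. No test of the difference between the sets was made.

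Other genes of mitochondrial translation and of its regulation were read from 7 lists holding 97 genes, of which 75 were tested. Of these, 4 fell (5.33%, against 5.74% of all tested genes) and 1 rose (1.33%, against 1.42%), so both shares were near the background, and the median change was -0.15. The genes that fell did not keep their calls without CKO4, WT1, WT2 or WT4. Among 6 subunits of the mitochondrial ribosome named otherwise, Chchd1 fell. It measured 12.6, 15.9, 15.2 and 11.5 RPKM across CKO1 to CKO4, against 22.4, 23.0, 18.03 and 18.3 RPKM across WT1 to WT4, with no overlap (log2 change -0.54, SE 0.13, adjusted p = 0.033, limma). In 5 of these 6 subunits all CKO libraries were below all WT libraries, as in 16.2% of all tested genes, and the values that missed the threshold included Aurkaip1 (13.5 ± 0.753 against 16.5 ± 0.961 RPKM, adjusted p = 0.111), Dap3, which binds GTP in the small subunit (1.78 ± 0.095 against 2.35 ± 0.202, adjusted p = 0.118), and Ptcd3 (2.87 ± 0.497 against 3.66 ± 0.274, adjusted p = 0.171). Among 20 tested assembly and rRNA modification genes, 1 fell: Mrm2, which methylates the large subunit RNA, averaged 0.641 ± 0.138 against 1.22 ± 0.174 RPKM (log2 change -0.44, adjusted p = 0.0304, limma). Its CKO libraries were all below 1 RPKM (0.439 to 0.729) and its WT libraries all above (1.09 to 1.47), with 20 to 68 reads per library. Mrm2 thus reached the filter of the test only through its WT libraries, and its call carries no weight as support.

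Among 10 tested translation factors, 1 fell: Tsfm, the elongation factor that recharges mitochondrial EF-Tu, averaged 2.34 ± 0.468 RPKM in CKO and 3.66 ± 0.289 in WT (log2 change -0.49, adjusted p = 0.038, limma). The peptide deformylase Pdf was near the threshold (2.91 ± 0.44 against 4.48 ± 1.08 RPKM, adjusted p = 0.0689). Among 11 tested genes of mitochondrial DNA maintenance and transcription, 1 fell: Ssbp1, which coats single-stranded mitochondrial DNA, averaged 2.199 ± 0.225 against 3.38 ± 0.274 RPKM (log2 change -0.45, adjusted p = 0.0308). Over the 8 omissions of 1 library the call held in 3 for Chchd1, in 2 each for Mrm2 and Tsfm, and in 1 for Ssbp1. In limma with group as the only term, 0 of 9 tested mitochondrial tRNA synthetases and 0 of 12 tested chaperones and proteases passed, with 2 and 1 lower at an unadjusted p under 0.05, and 0 of either in limma-voom. The chaperones and proteases had a median change of -0.09, above that of all tested genes.

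Among 7 tested regulators of mitochondrial biogenesis, 1 rose. Myc, a transcription factor that drives ribosome production, measured 14.8, 19.9, 19.4 and 24.98 RPKM across CKO1 to CKO4, against 11.5, 7.06, 10.3 and 9.34 RPKM across WT1 to WT4. Every CKO library was above every WT library (log2 change 0.98, SE 0.17, adjusted p = 0.00808, limma), and the call held in 16 of 16 other settings. The coactivator gene Pprc1 averaged 21.5 ± 6.74 against 13.5 ± 4.43 RPKM (log2 change 0.63, SE 0.27, adjusted p = 0.163). Yy1, the gene of the factor named above, averaged 7.27 ± 1.21 against 8.86 ± 0.455 RPKM (log2 change -0.26, adjusted p = 0.193), and Gabpb1, which encodes a subunit of GABP, averaged 3.24 ± 0.473 against 2.51 ± 0.441 RPKM (log2 change 0.27, adjusted p = 0.198), both with overlap. Nrf1 averaged 2.12 ± 0.461 against 2.32 ± 0.235 RPKM (log2 change -0.1, adjusted p = 0.646, limma). Gabpa, of the other GABP subunit, averaged 5.52 ± 1.45 against 5.06 ± 0.45 RPKM (log2 change 0.08, adjusted p = 0.778, limma). Their groups overlapped too.

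Among markers of other cell types, only the macrophage and duct sums did not overlap between the groups. Of all tested genes, 5.74% fell, 1.42% rose and 70.4% had a change below 0. Of 8 macrophage markers all were detected and all had a change below 0, 2 of them past the threshold, and their summed level ran from 52.8 to 95.6 RPKM in CKO and from 99.6 to 148 in WT. Of 6 duct markers all were detected, 5 were tested and had a change below 0, 1 of them past the threshold, and the sum ran from 276 to 524 RPKM in CKO and from 544 to 609 in WT. Of 7 neutrophil markers all were detected, 5 were tested and had a change below 0, 0 passed, and the sum ran from 14.3 to 46.8 RPKM in CKO and from 37.6 to 84.0 in WT. Of 6 islet markers all were tested and had a change above 0, 1 passed as higher, and the sum ran from 1290 to 2030 RPKM in CKO and from 846 to 1630 in WT. The 4 B cell markers and 5 T cell markers in the table did not reach the filter of the test, and their sums were at most 0.468 and 0.134 RPKM in CKO and at most 5.3 and 1.09 in WT. Fibroblast sums were 64.4 to 102 RPKM in CKO and 54.8 to 121 in WT, endothelial sums 15.9 to 20.1 and 16.6 to 24.9, with 1 of 4 tested endothelial markers past the threshold as lower, and fat cell sums 22.5 to 29.2 and 22.9 to 63.7. The part of any of these cell types in the members' values was not tested.

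By position, 18 of the 78 members (23.1%) had a protein-coding gene transcribed away from them within 1000 bases of their start, as Mrpl40 has Hira, against 10.4% of the tested genes. Exon bases were shared with another gene in 33 members (42.3%) and in 37.1% of the tested genes.

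**Figure D5:**
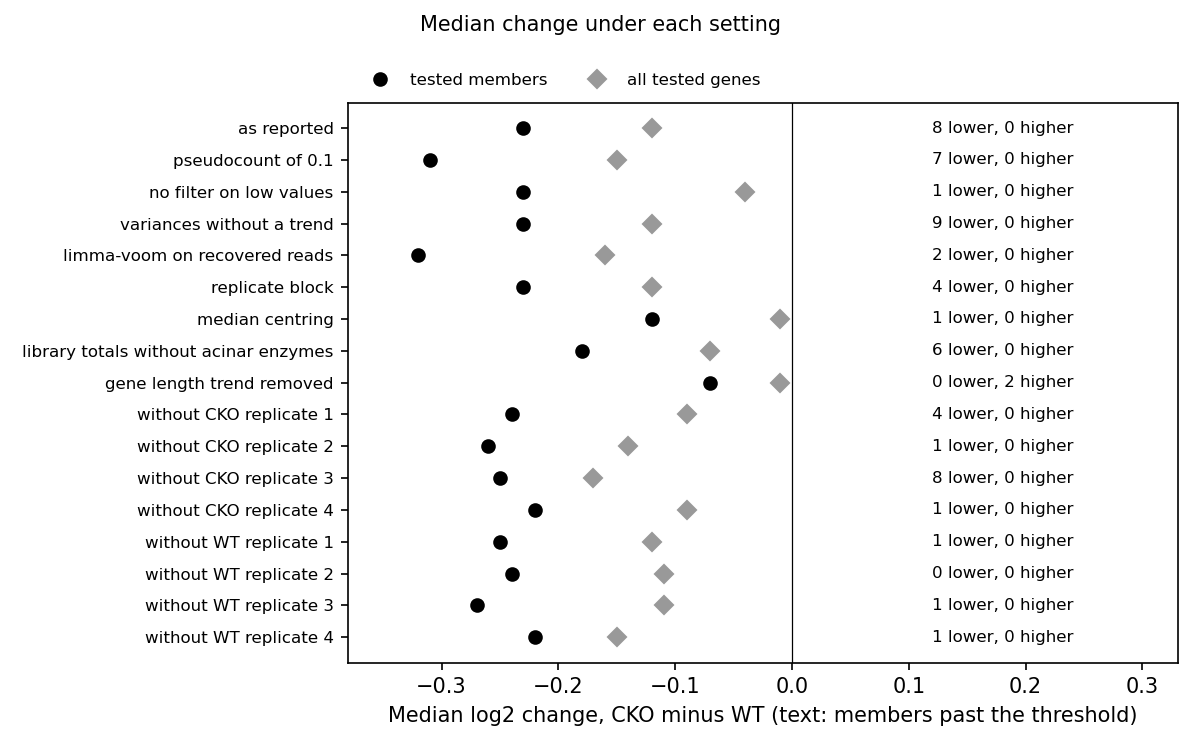
Median log2 change, CKO minus WT, of tested members (circles) and of all tested genes (diamonds) as reported and under each of 16 other settings, with the number of members past the threshold printed at the right. The members' median is below that of all tested genes in every setting shown, from -0.32 to -0.07.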

How the data were processed

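The authors deposited 1 table of RPKM values per gene and library, with no unit in its header; the unit was read from the values. Of 16068 genes above 0 in at least 2 libraries, 16056 (99.93%) gave whole reads in every library within 0.05 reads, once multiplied by a gene length and a library total, and all 78 members did. The reference was mm10, per the submitters' processing notes; for the aligner, counter and annotation, the sources used here give no name. An unnamed column with 8 numbers was not used (1 column).

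limma 3.58.1 in R 4.3.3 was run on log2(RPKM + 1), a pseudocount of 1, over genes that reached 1 RPKM in 4 or more libraries. Group was the sole term, and variances were moderated by robust empirical Bayes with a trend on the mean. Log2 changes understate those of genes near 1 RPKM; percent differences are ratios of mean RPKM. The design named limma for RPKM, and a test on counts would have taken its place had the files held counts. Recovery, promoters and figures used Python 3.11.15, NumPy 2.4.6, pandas 2.3.3, SciPy 1.17.1 and Matplotlib 3.10.9. The recovery and the fit were tested on simulated data.

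The members, gene lists and settings were chosen with earlier results of these data known. Genes named were every member past the threshold, the 10 tested members with the largest change, the 5 highest and 5 lowest levels, the stalk, decoding, S18-related and hydrolase members, up to 4 genes per pathway list by smallest p, and Anxa1. Nrf1 and Gabpa were added after their values were seen. The settings for the other genes of mitochondrial translation and for the summed level were added after seeing the data. Counting floors cover counting error only.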

Additional observations from a re-analysis of the deposited data

Results flagged for a closer look

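In 6 of 118 groups of 4 libraries tested, 1 library stood apart from the other 3 by more than Dixon's 95% critical value; chance alone does so in about 1 group in 20. WT4 was apart in 3 of them: Mrpl40 was 14.3 RPKM there against 11.6 to 11.7 in the other WT libraries, Mrpl33 was 28.9 RPKM against 22.3 to 22.8, and Mrps18c was 19.2 RPKM against 13.0 to 13.8. Without WT4 the change of Mrpl40, which was past the threshold with all libraries, kept its direction and missed the threshold. Among CKO libraries, Mrpl4 was 1.27 RPKM in CKO4 against 0.999 to 1.01, and Mrps12 was 4.66 RPKM in CKO1 against 3.41 to 3.56. C1qbp, a mitochondrial matrix protein gene from the assembly list, was 29.6 RPKM in WT2 against 26.0 to 26.4 in the other WT libraries.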

How the results depend on the processing

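As reported, 8 members passed at a median change of -0.23, and 5 genes of the lists for mitochondrial translation and its regulation passed, 4 lower and Myc higher. Members past the threshold numbered 1 with no filter on low values, 2 in limma-voom on recovered reads, 4 with the replicate number as a block, 1 after median centring and 2, both higher, with the length trend removed. The members' median was -0.31 with a pseudocount of 0.1, -0.32 in limma-voom, -0.12 after centring and -0.07 with the length trend removed. Of those lists, 3 genes passed with no filter, 2 in limma-voom, 3 with the replicate block, 2 after centring and 1 with the length trend removed. Each count includes Myc, which rose, so with the length trend removed 0 of the 4 lower genes stayed. Over the omissions of 1 library, members past the threshold ran from 0 to 8, the genes of the lists from 1 (Myc alone, without CKO4, WT1, WT2 or WT4) to 8 (6 lower and 2 higher, without CKO1), and the ratio of summed levels from 0.814 to 0.853. Variances without a trend gave 9 members. All genes past the threshold numbered 100 higher and 323 lower in limma-voom, and 114 higher and 350 lower with no filter. CKO and WT libraries of the same number correlated in their deviations at -0.123, -0.315, 0.142 and 0.0331, so no pairing by number was seen. With 4 libraries in each group, these values cannot decide whether the numbers pair the samples. Except where the length trend was removed, no setting gave a member past the threshold in the higher direction. The causes of these differences were not tested. The fewest reads were those of Mrps36, from 45 to 76 per library.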
